A study of Mus musculus with 4 samples.

Results

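Hbb-bs, which encodes a beta chain of adult mouse haemoglobin, was higher in HT22 cells given a miR-712-3p mimic than in control cells. Mean normalised counts of Hbb-bs were 97.7 ± 3.83 in mimic libraries and 25.9 ± 7.94 in control libraries (SD, n = 2 each), a ratio of 3.78. It is 1 gene of the 48 in the deposited table and was found there by its symbol. Hbb-bs was selected on the same difference between mimic and control that brought it into the table, so its values are a description and carry no test.

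Haemoglobin is made of alpha and beta globin chains, each of which holds a haem group that binds oxygen. Globin genes lie in an alpha and a beta cluster, and red cell precursors switch from embryonic to adult chains during development under transcription factors such as Klf1 and Gata1. Adult globin transcripts are the main messenger RNAs of maturing red cells, and low amounts have also been described outside the blood, including in some neurons. HT22 is an immortalised mouse hippocampal line used as a model of neurons.

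RNA was sequenced from 4 HT22 libraries labelled wild type. The mimic group (2 libraries) was transfected with a mimic of miR-712-3p, which stood with the reagent for 15 min and stayed on the cells for 24 h until the medium was replaced. The control group (2 libraries) had its medium changed at the same times but got neither transfection reagent nor control RNA, so the mimic and the transfection itself cannot be told apart. The columns call this group NC, a name that the labels leave unexplained. The treatment label of mimic replicate 2 reads miR-712-4p where that of mimic replicate 1 reads miR-712-3p, and both titles say only that the cells were transfected. The methods say in general terms that experiments were done independently more than once, but no source says whether the replicates of these libraries came from separate cultures, so the spread between them may be technical. Library totals and reads per gene are not given by the labels or the methods and were inferred from the deposited FPKM values. The inferred totals were 31147478 and 39292645 reads in mimic replicates 1 and 2. In control replicates 1 and 2 they were 35050806 and 29873090 reads. The cell type could not be checked from these values, since 0 of 19 neuronal markers, such as Map2 and Tubb3, were among the 48 genes.

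The Hbb-bs gene (ENSMUSG00000052305) spans chr7:103826534-103828096 on the minus strand of GRCm38. Its main transcript, Hbb-bs-201, has 628 bases in 3 exons. Exon 1 (chr7:103827784-103827928) holds a 5′ UTR of 53 bases and the start of the coding sequence. Exon 2 (chr7:103827448-103827670) is coding throughout. Exon 3 (chr7:103826534-103826793) ends the 444 coding bases, stop codon included, and carries a 3′ UTR of 131 bases. A second coding transcript model, Hbb-bs-203, starts further upstream and a retained intron model, Hbb-bs-202, lies within the gene. Together the exons of all 3 models cover 768 bases, and this length reproduced whole reads from the deposited FPKM (reads scaled by exon length and library total). This length is 1.22 times that of Hbb-bs-201, and how the reads fall among the 3 models was not analysed here.

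Hbb-bs is 1 of 7 genes in the beta cluster on chromosome 7, of which Hbb-bh3 and Hbb-bh0 are pseudogenes. Hbb-bt, the other adult beta gene, lies at chr7:103812524-103813996, 12.5 kilobases away. The embryonic genes Hbb-bh1 and Hbb-y and the gene Hbb-bh2 lie on the opposite side of Hbb-bs. The coding sequences of Hbb-bs and Hbb-bt were identical at 443 of 444 bases (99.8%), and the encoded proteins at all 147 residues. The single coding difference was at coding base 417, counted from the A of the start codon. Coding identity to Hbb-bs was 74.3% for Hbb-y, 74.1% for Hbb-bh1 and 70.3% for Hbb-bh2. The last 60 coding bases are shown because they hold the only coding base that separates Hbb-bs reads from Hbb-bt reads. They lie at chr7:103826665-103826724 in Hbb-bs, chr7:103812656-103812715 in Hbb-bt, chr7:103841752-103841811 in Hbb-bh1 and chr7:103851874-103851933 in Hbb-y, all in exon 3 and on the minus strand of GRCm38. Capitals mark bases that differ from Hbb-bs, or, in the Hbb-bs line, from Hbb-bt.
Hbb-bs: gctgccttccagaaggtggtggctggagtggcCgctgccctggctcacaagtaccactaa
Hbb-bt: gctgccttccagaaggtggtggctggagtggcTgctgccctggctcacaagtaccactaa
Hbb-bh1: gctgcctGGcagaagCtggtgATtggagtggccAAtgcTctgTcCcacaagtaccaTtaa
Hbb-y: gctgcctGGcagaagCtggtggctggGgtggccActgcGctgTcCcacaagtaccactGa

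In this stretch Hbb-bt differed from Hbb-bs at 1 base, Hbb-y at 9 bases and Hbb-bh1 at 11 bases. The adult pair therefore differed almost wholly outside the coding sequence. Over the 5′ UTR, 9 of 53 aligned bases differed between Hbb-bs and Hbb-bt, and over the 3′ UTR 36 of 130 differed. Between them lay an unbroken run of 430 identical bases, from base 40 to base 469 of the Hbb-bs transcript, as the map of transcript differences shows.

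**Figure D1:**
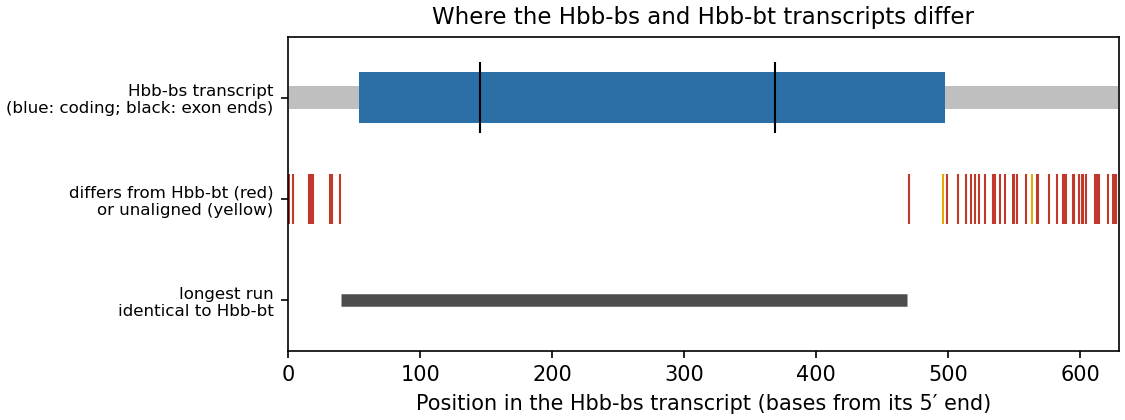
The horizontal axis is the position in the Hbb-bs-201 transcript in bases; the top row draws its exons and coding part, the middle row marks bases that differ from Hbb-bt (red) or have no aligned partner (yellow), and the bottom bar is the longest identical run. A run of 430 bases is shared, and 37 of the 46 aligned differences lie after it. The yellow mark at base 496 lies in the stop codon and comes from a gap in the alignment. Compared without gaps, the coding sequences did not differ there.

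This bears on what the Hbb-bs values count. Of the 529 windows of 100 bases in the Hbb-bs transcript, 331 (62.6%) were found unaltered in Hbb-bt, and no other gene held any of them. With windows of 50 bases the share was 65.8%, and with windows of 150 bases it was 58.7%. The read length is not given in the sources used here. A read from these windows fits both genes, and how the authors' counter placed such reads is not stated. Sequencing was in paired ends, and the mate of such a read may fall where the genes differ. The shares are thus those of single reads and may overstate the share of fragments that fit both genes. Hbb-bt was not among the 48 listed genes and its reads were not analysed here. The Hbb-bs counts are therefore uncertain as a measure of 1 gene, and the part that Hbb-bt plays in them was not tested.

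Hbb-bs had 93 reads in mimic replicate 1 and 111 in mimic replicate 2, against 33 in control replicate 1 and 18 in control replicate 2. In FPKM the values were 3.89 and 3.68 in the mimic libraries, against 1.23 and 0.785 in the control libraries. Divided by the size factor of each library, reads became normalised counts of 100.4 and 95.0 in the mimic libraries, against 31.5 and 20.2 in the control libraries. Both mimic libraries lay above both control libraries on each of these scales, and the lowest mimic library was 3.02 times the highest control library. By selection, 26 of the 48 genes (54.2%) had both mimic libraries above both control libraries, so the separation is shared with most of the higher genes and nothing is read from it.

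**Figure D2:**
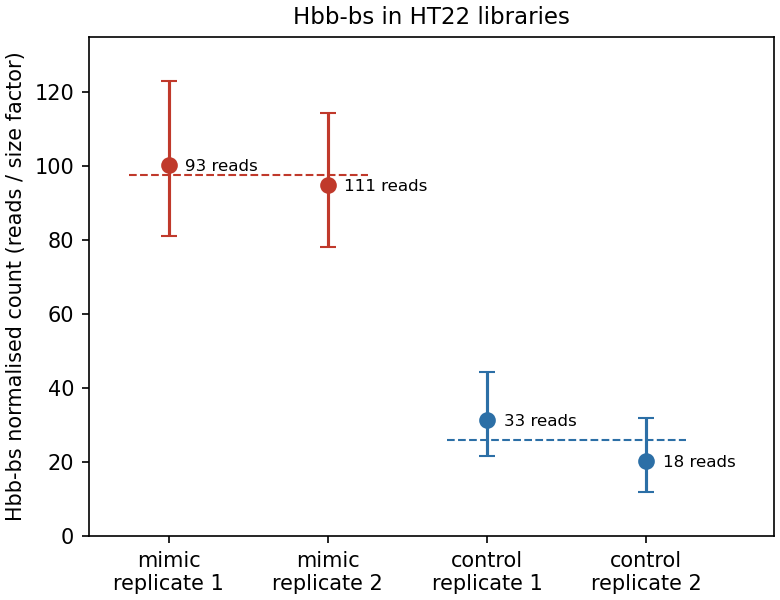
The vertical axis is the Hbb-bs normalised count (reads divided by the size factor) in each library; points are libraries with exact 95% Poisson intervals, dashed lines are group means, and the number of reads stands beside each point. The mimic libraries, at 100.4 and 95.0, lie above the control libraries, at 31.5 and 20.2.

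The reads behind these values were few. The 4 libraries together held 255 Hbb-bs reads, 204 in the mimic libraries and 51 in the control libraries. As a share of each library in RPM (reads scaled to the library total), Hbb-bs took 2.99 and 2.82 RPM in the mimic replicates, against 0.941 and 0.603 in the control replicates. Exact 95% Poisson intervals ran from 2.41 to 3.66 and from 2.32 to 3.40 RPM in the mimic replicates, against 0.648 to 1.32 and 0.357 to 0.952 in the control replicates. These intervals describe each value and are no test of the difference. They cover counting error only and treat reads as independent, while amplified reads are not independent molecules. The libraries were sequenced in paired ends, and whether both mates of a fragment were counted is not stated. If both were, the intervals are too narrow even for counting error. At these depths 1 read was worth between 0.0331 and 0.0436 FPKM of Hbb-bs.

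The 4 ratios of a mimic library to a control library describe the difference on which the gene was selected. Their intervals cover only the counting error of independent reads. Mimic replicate 1 was 3.19 times control replicate 1 (exact 95% interval 2.12 to 4.90) and 4.96 times control replicate 2 (2.97 to 8.73). Mimic replicate 2 was 3.02 times control replicate 1 (2.03 to 4.60) and 4.69 times control replicate 2 (2.84 to 8.20). The spread among these ratios came mainly from the control libraries. The mimic replicates differed by 1.06 times (exact 95% interval 0.794 to 1.41). The control replicates, with 33 and 18 reads, differed by 1.55 times (0.850 to 2.93). Both intervals include 1, so counting error alone allows equal replicates in each group. The ratio of group means was 3.67 without mimic replicate 1, 3.88 without mimic replicate 2, 4.82 without control replicate 1 and 3.10 without control replicate 2.

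Among the 48 genes Hbb-bs was one of the more abundant. Its mean FPKM over the 4 libraries was 2.39, the fifth highest and 9.43 times the median of 0.254, and its 255 summed reads ranked eighth against a median of 62.5. In ratio it was close to the middle. Of the 29 genes with a higher mean in the mimic group, whose median ratio was 3.94, Hbb-bs ranked 16. The authors' methods screen genes by a minimum fold change and an adjusted p. Smaller ratios are thus absent by selection, and the median and rank hold only among the selected genes. All 15 genes with a larger ratio, except Gm4631, had fewer reads than Hbb-bs, and 5 of them had no control read, as the plot of level against ratio shows. The mimic replicates of Hbb-bs were also close to each other. Their 1.06-fold difference was the fifth smallest of 39 genes with reads in both mimic libraries, where the median was 1.40. The 1.55-fold difference between control replicates ranked 19 of 39, against a median of 1.70.

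**Figure D3:**
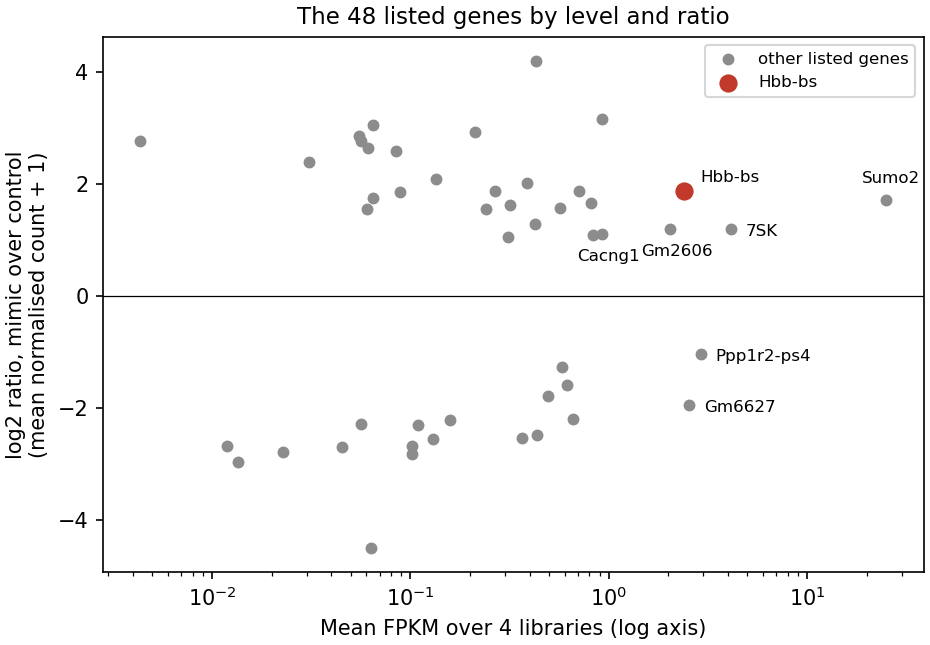
The horizontal log axis is the mean FPKM over 4 libraries and the vertical axis is the log2 ratio of mean normalised counts, mimic over control, with a pseudocount of 1; each point is 1 of the 48 listed genes. Hbb-bs lies at 2.39 FPKM and a log2 ratio of 1.88, and the genes with a larger log2 ratio lie at a lower mean FPKM.

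The genes next to Hbb-bs in level differed in direction among themselves. Next above it in mean FPKM were the processed pseudogenes Gm6627 (2.55) and Ppp1r2-ps4 (2.91), and next below it were the processed pseudogene Gm2606 (2.04) and Cacng1 (0.930), which encodes a gamma subunit of the calcium channel of skeletal muscle. Pseudogene counts can include reads of their parent genes. Gm6627 had 1.21 and 0.864 FPKM in the mimic replicates against 5.56 and 2.57 in the control replicates. Ppp1r2-ps4 had 1.88 and 1.89 FPKM in the mimic replicates against 4.24 and 3.65 in the control replicates. Both were thus lower with the mimic in each library. Gm2606 had 4.39 and 1.32 FPKM in the mimic replicates against 1.08 and 1.37 in the control replicates, and its groups overlapped. Cacng1 had 1.13 and 1.43 FPKM in the mimic replicates against 0.571 and 0.590 in the control replicates, with no overlap and a ratio of means of 2.21.

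Likeness in pattern was measured as the root mean square difference between log2(normalised count + 1) values over the 4 libraries, after centring each gene on its own mean. The 47 other genes lay between 0.125 and 3.01 from Hbb-bs, with a median of 0.858, or 0.505 among the 28 other higher genes. The nearest were Slurp1 (0.125), Atad3aos (0.158), Hook1 (0.182), Peg3 (0.194) and Csrp3 (0.305). Since all 48 genes were chosen on this contrast and the libraries number 4, likeness here says little beyond a similar ratio and a similar order of libraries.

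Slurp1, which encodes a small secreted Ly6-type protein, had 36 and 53 reads in the mimic replicates against 13 and 8 in the control replicates. Atad3aos, a transcript antisense to the mitochondrial ATPase gene Atad3a, had 22 and 32 reads in the mimic replicates against 10 and 5 in the control replicates. The strand of counting is not stated, and without it its reads and those of Atad3a cannot be told apart. Hook1, an adaptor that links cargo to microtubule motors, had 24 and 30 reads in the mimic replicates against 10 and 6 in the control replicates. In all 3 the groups were apart. Peg3, an imprinted zinc finger gene, had 51 and 44 reads in the mimic replicates against 18 and 8 in the control replicates. Csrp3, a LIM domain protein of striated muscle, had 131 and 96 reads in the mimic replicates against 49 and 20 in the control replicates. In none of the 5 did the groups overlap, beside 54.2% of all 48 genes with both mimic libraries above both control libraries, and in each control replicate 2 was the lowest library. Being chosen for likeness to Hbb-bs favours both features, so nothing is read from them. Control replicate 1 was above control replicate 2 in 18 of the 24 higher genes that had control reads and in 14 of the 19 lower genes. The ratios of mean normalised counts ran from 3.17 for Hook1 to 3.94 for Slurp1, with 3.78 for Hbb-bs between them.

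**Figure D4:**
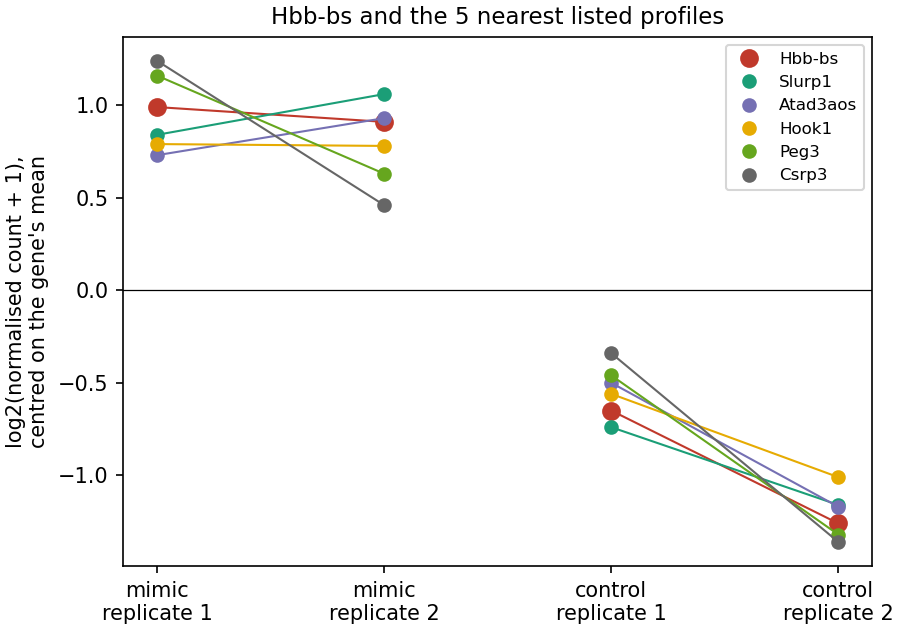
The vertical axis is log2(normalised count + 1) centred on each gene's own mean, and the horizontal axis gives the 4 libraries; colours are Hbb-bs and its 5 nearest listed genes, with lines joining replicates of 1 group only. All 6 genes lie above 0 in both mimic libraries and below 0 in both control libraries, lowest in control replicate 2.

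No other globin gene stood beside Hbb-bs in the table. Of 15 haemoglobin chain symbols, 12 are in the annotation and 1, Hbb-bs, was in the table. Missing were its neighbour Hbb-bt, the adult alpha genes Hba-a1 and Hba-a2 whose chains pair with beta globin, the embryonic chains Hba-x, Hbb-bh1 and Hbb-y, and the theta chains Hbq1a and Hbq1b. Myoglobin (Mb), neuroglobin (Ngb), cytoglobin (Cygb) and androglobin (Adgb) were missing too. The table held only selected genes, so a missing gene may have been read at any level with a difference too small or too variable to be selected. The values therefore do not show whether alpha globin was expressed beside Hbb-bs.

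The same held for genes that make and handle haem. None of 9 haem synthesis genes was in the table, from Alas1 and Alas2, which catalyse the first and limiting step, to Fech, which inserts iron into the ring. None of 22 genes of haem transport and breakdown was listed, among them Hmox1 and Hmox2, which open the haem ring, the exporter Flvcr1 and the haem-sensing repressor Bach1. None of 21 iron handling genes was listed, including the ferritin subunits Fth1 and Ftl1 and the iron exporter Slc40a1.

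Genes that mark red cells or other cells of blood and vessels were looked up in the same way. None of 16 erythroid transcription factors was listed, Klf1, Gata1 and the fetal globin repressor Bcl11a included. None of 27 red cell membrane, surface and enzyme genes was listed, among them Slc4a1, which exchanges anions across the red cell membrane, the erythropoietin receptor Epor and the alpha globin chaperone Ahsp, whose symbol is not in the annotation. None of 21 white cell and platelet markers, such as Ptprc and Pf4, was listed. Of 13 vessel wall markers 1 was listed, the gap junction gene Gja4, with 2 and 12 reads in mimic replicates 1 and 2 against 0 reads in both control replicates. It rested mainly on mimic replicate 2, unlike Hbb-bs. None of 15 hypoxia response genes was listed. In all, 2 of 181 symbols on the lists were in the table, Hbb-bs and Gja4, and 176 of the 181 were in the annotation. The table held 29 of the 21951 protein-coding genes of the annotation (0.132%), so a list of this size with no member in it is the usual case, and nothing is read from these absences. Since levels of the missing genes were not analysed here, the part of other cell types in the Hbb-bs values was not tested.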

How the data were processed

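The authors captured messenger RNA on oligo(dT) beads and sequenced it in paired ends. HISAT2 did the alignment and DESeq2 the comparison, by the methods and the submitters' processing notes. Not given in the sources used here were read counter, genome build, annotation and tool versions. The authors deposited 48 selected genes, with 1 value per library that the values showed to be FPKM, and 1 mean normalised signal per group. Deposited columns of log2 fold change, p and adjusted p hold the authors' own comparison and were not used.

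FPKM × union exon length (GENCODE M21, GRCm38) × 1 library total, the smallest that served, gave whole reads within 0.01 for 44 of 46 annotated genes, Hbb-bs included. The other 4 genes needed a searched length, which also had to meet the deposited group means. Size factors were 0.926, 1.17, 1.05 and 0.889 for mimic replicates 1 and 2 and control replicates 1 and 2. They were solved from the deposited group means and returned these within 0.0054, which is a fit and no separate check. In a test on simulated data for 46 genes, 100% of reads were recovered. Columns and labels were matched by group name and replicate number. Ratio intervals are exact conditional (Clopper-Pearson) intervals at 95%. A selected table cannot be refitted, so no count test was run. Transcripts were aligned with Biopython 1.88; other steps used Python 3.11.15 with numpy 2.4.6 and scipy 1.17.1. Coordinates are those of GENCODE M21 and not of the authors' files.

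Named genes are Hbb-bs, listed members of 11 gene lists, the 5 nearest profiles, and the 2 genes next above and below in mean FPKM. Other genes were named after their values were seen. Hbb-bs and the lists were chosen with earlier results of these data known.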

Additional observations from a re-analysis of the deposited data

How the results depend on the processing

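The Hbb-bs ratio of means was 3.78, and it was 3.76 on FPKM and 3.87 with geometric means, with a range from 3.10 to 4.82 when 1 replicate was left out. With 2 replicates a group, the values with 1 left out follow from the spread between them and show no stability. The log2 ratio was 1.88 with a pseudocount of 1, between 1.73 and 1.92 with pseudocounts of 5 and 0, and from 1.60 to 2.22 when 1 replicate was left out. Of 26 genes with both mimic libraries above both control libraries, 17 remained when a mean of at least 10 normalised counts was required, a filter that by construction leaves fewer genes. The count was between 27 and 28 with 1 replicate left out. Genes with a larger ratio than Hbb-bs numbered 15, or 6 under that filter. How many listed genes passed the filter was not reported, so 17 and 6 carry no share. No paired analysis was possible because Hbb-bs was selected on this contrast and given no test, and nothing in the labels ties the replicate numbers of the 2 groups together. The ratios between replicates of the same number were 3.19 and 4.69. The control values rest on few reads. The 18 reads in control replicate 2 allow between 10.7 and 28.4 by the counting error of independent reads alone. A change in how reads shared with Hbb-bt were placed could not be tried from these values.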
